A study of Homo sapiens with 24 samples.

Results

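The genes described here are the G1 cyclins, their kinases, and the inhibitors of those kinases: the D-type cyclins CCND1, CCND2, and CCND3, the E-type cyclins CCNE1 and CCNE2, the cyclin-dependent kinases CDK2 and CDK6, and the CDK inhibitors CDKN1A, CDKN1B, and CDKN2B. Their rows were taken by symbol, and they are 10 of the 26645 gene entries in the count table. RNA was measured in 24 libraries, with 3 in each of 8 groups. MB468 (MDA-MB-468) is a triple-negative breast cancer cell line that needs methionine (Met) to proliferate. MB468res-R8 is 1 Met-independent clone, obtained from MB468 by long culture in medium in which Met was replaced by its precursor homocysteine (Hcy), so a value of this line describes that clone alone. The 0 h libraries of each line come from Met+ medium, which held 100 µM Met. The others come from cells moved to Met-Hcy+ medium (370 µM Hcy, no Met) and collected 0.5, 2, or 12 h later. All groups shared DMEM with dialyzed serum, vitamin B12, glutamine, and cysteine. No library came from cells kept in Met+ medium for the later times, so the loss of Met, the change of medium, and the time in culture cannot be told apart. In bulk RNA, fewer cells that express a gene and less RNA per cell cannot be told apart either.

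Libraries held between 11713037 and 36402932 gene counts, with a median of 20452797, and 0.201 to 0.303% of all counts were on spike-in RNAs. Of the 10 genes, 9 passed the expression filter and were tested among 14741 genes. Epithelial and basal markers (EPCAM, CDH1, KRT8, KRT18, KRT19, KRT5, and EGFR) were present in every library and PGR had at most 2 counts, while ESR1 and ERBB2 were low but detected (4.15 to 22.6 and 38.3 to 97.3 CPM). Of 8 fibroblast and leukocyte markers, COL1A2, COL3A1, PTPRC, and CD3E had at most 7 counts in any library and PDGFRB at most 15, CD68 was low (2.85 to 10 CPM), and COL1A1 and CD14 made up most of the summed levels. The leukocyte sum was 144 to 163 CPM in MB468 and 50.6 to 68.4 CPM in MB468res-R8 before 12 h, and 62.5 to 75.2 and 30.7 to 32.4 CPM at 12 h. The fibroblast sum was 26.6 to 39.7 and 40.4 to 73.4 CPM before 12 h, and 14.6 to 15.7 and 29.3 to 38.4 CPM at 12 h. The part of these markers in the results at 12 h was not tested. Replicate 2 of MB468 at 2 h stood apart by 8251 counts of the small nuclear RNA RN7SK, against at most 357 in any other library. Without that library the same number of members, 5, was called for MB468 at 2 h. Labels do not say whether replicates came from separate cultures, so that p-values measure the spread between these libraries only. Scaling on the spike-in totals in place of TMM moved the median over all genes to -0.31 (log2) for the lines at 0 h, to -0.20, -0.42, and -0.23 for MB468 at 0.5, 2, and 12 h, and to -0.11 for the lines at 12 h, while the medians for MB468res-R8 stayed between -0.04 and 0.04. Changes are therefore relative to the bulk of genes. Where a member's result was called with either scaling and its direction turned under spike-in scaling, this is named where the result is given.

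Progress through G1 phase is driven by cyclins that bind and activate kinases. Cyclins D1, D2, and D3 act with CDK4 and CDK6, cyclins E1 and E2 act with CDK2, and both kinds of complex phosphorylate the retinoblastoma family of pocket proteins, which releases E2F factors and allows the genes of DNA synthesis to be transcribed. The INK4 inhibitor p15, encoded by CDKN2B, blocks CDK4 and CDK6, whereas p21 (CDKN1A) and p27 (CDKN1B) bind cyclin E and CDK2 and can also join cyclin D complexes. CDKN1A is best known as a target of p53, CDKN1B is controlled by FOXO factors and by protein turnover, and CDKN2B is a known target of TGF-beta signaling. MDA-MB-468 is known to carry a mutant p53 and to lack functional RB1, and breast epithelial cells that lose RB1 depend little on cyclin D and CDK6.

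The time courses of the 3 inhibitors differed from each other, and their promoters are shown for that reason. RefSeq windows on GRCh38.p14 were at hand for 6 of the 10 genes (CCND3, CCNE1, CDK6, CDKN1A, CDKN1B, and CDKN2B, with 9 windows in all). Each sequence below is the 250 bases before the transcription start, 5′ to 3′ on the strand of the gene, and capitals mark matches to the Sp1 box GGGCGG or the CRE core TGACG on either strand. CDKN1A lies at chr6:36678464-36678713 on the plus strand, CDKN1B at chr12:12717118-12717367 on the plus strand, and CDKN2B at chr9:22009306-22009555 on the minus strand.
CDKN1A: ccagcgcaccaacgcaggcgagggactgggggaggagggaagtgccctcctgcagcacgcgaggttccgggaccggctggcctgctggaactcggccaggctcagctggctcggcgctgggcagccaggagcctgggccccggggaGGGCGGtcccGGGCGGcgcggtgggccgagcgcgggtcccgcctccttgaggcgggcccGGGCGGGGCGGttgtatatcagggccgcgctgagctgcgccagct
CDKN1B: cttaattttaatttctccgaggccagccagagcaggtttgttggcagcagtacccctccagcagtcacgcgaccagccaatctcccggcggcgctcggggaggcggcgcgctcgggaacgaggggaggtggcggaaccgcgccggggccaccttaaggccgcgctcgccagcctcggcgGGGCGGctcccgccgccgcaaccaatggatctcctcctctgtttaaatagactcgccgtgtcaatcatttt
CDKN2B: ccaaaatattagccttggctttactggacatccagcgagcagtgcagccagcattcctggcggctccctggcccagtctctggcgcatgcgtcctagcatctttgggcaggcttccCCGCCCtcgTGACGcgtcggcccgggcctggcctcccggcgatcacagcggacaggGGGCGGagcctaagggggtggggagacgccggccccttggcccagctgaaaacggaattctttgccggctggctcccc
The Sp1 box was matched 4 times in the window of CDKN1A, where 2 of the matches overlap, once in that of CDKN1B, and 2 times in that of CDKN2B, and it occurs in 42.6% of 35116 windows of this length. The CRE core was matched once in the window of CDKN2B, as in 21.2% of all windows. The E2F core was searched on either strand as TTCCCGC, as TTCGCGC, as TTGCCGC, and as TTGGCGC, and it was in none of the 9 windows of these genes and in 10.9% of all windows. These matches describe letters in the sequence, and no binding was measured.

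**Figure D1:**
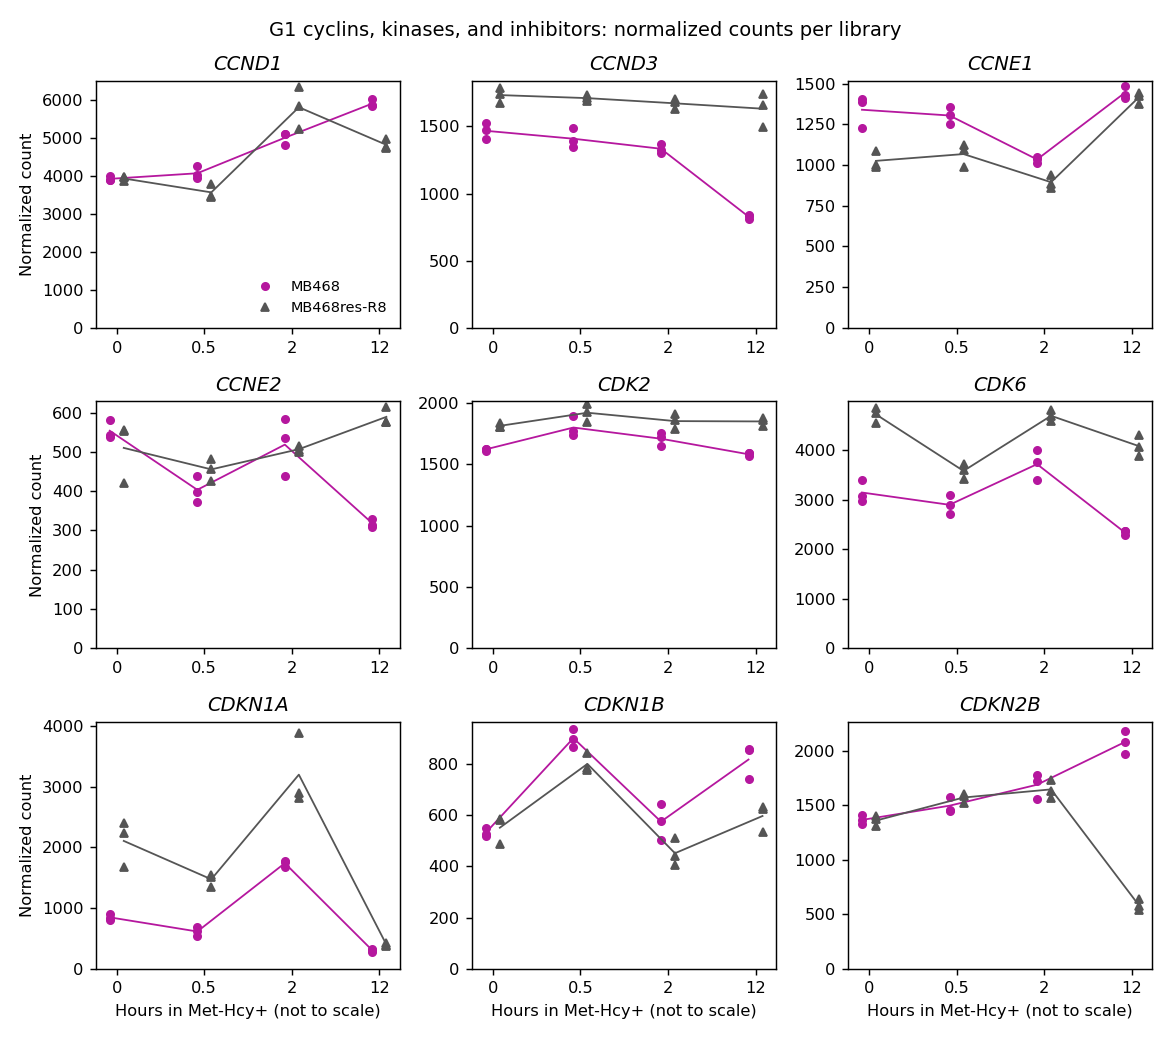
Normalized counts of the 9 detected genes (y axes, starting at 0) against hours in Met-Hcy+ medium (x axes, not to scale) for MB468 (magenta circles) and MB468res-R8 (grey triangles). Each point is 1 library and lines join the group means; CDKN1A falls to between 272 and 433 normalized counts at 12 h in both lines, and CDKN2B separates into 1972 to 2185 in MB468 and 539 to 643 in MB468res-R8.

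Levels are first given per length, as CPM divided by the length in kb of the MANE Select transcript, so that different genes can be set side by side. Counts are per gene and 1 transcript length stands for each, so the order of the genes is approximate. In MB468 at 0 h, CCND1 was highest at 40.7 ± 0.569 CPM per kb (SD, n = 3), followed by CCND3 (31.8 ± 1.30), CDK2 (31.8 ± 0.206), and CCNE1 (30.1 ± 2.19), and the range of CCND3 overlapped those of CDK2 and CCNE1. CDKN1A (17.6 ± 1.15), CDKN2B (15.6 ± 0.499), CDK6 (11.9 ± 0.816), CDKN1B (9.68 ± 0.276), and CCNE2 (9.10 ± 0.382) were lower, and the last 2 of these overlapped. The level and place of CCNE2 are uncertain, since its exons overlap those of INTS8 on the opposite strand, as given below. In MB468res-R8 at 0 h, CDKN1A stood highest with CCND1, at 43.8 ± 7.84 and 40.8 ± 0.607 CPM per kb, and the range of CDKN1A also spanned those of CCND3 and CDK2. After 12 h CDKN1A was among the lowest in both lines, at 6.28 ± 0.548 CPM per kb in MB468 and 8.27 ± 0.630 in MB468res-R8, and it lay below CDKN1B (14.9 ± 1.21 and 10.9 ± 0.992).

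**Figure D2:**
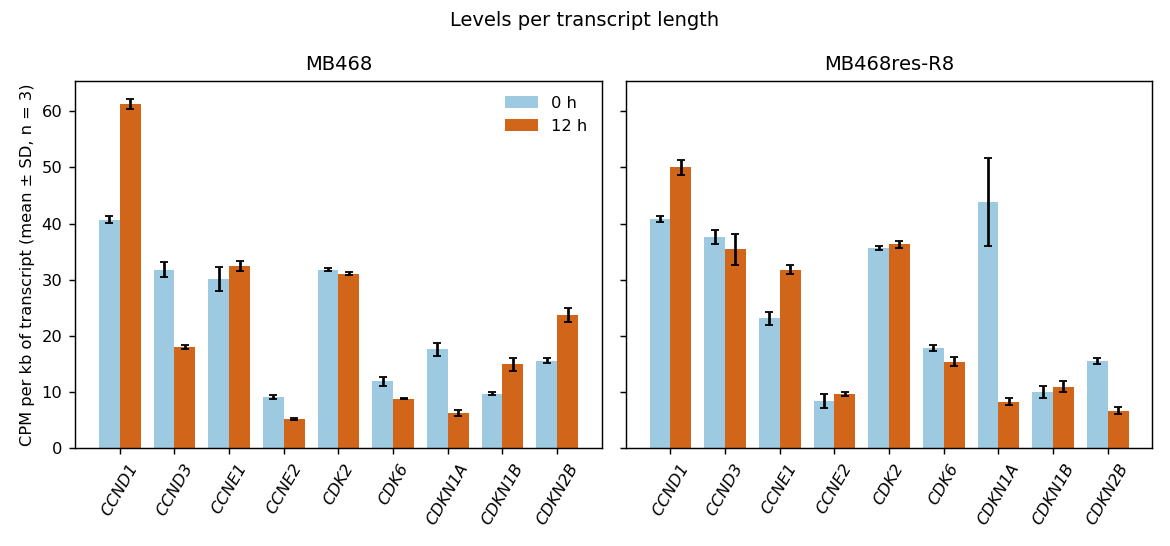
CPM per kb of transcript (y axis, mean ± SD, n = 3 libraries) of the 9 detected genes in MB468 (left) and MB468res-R8 (right) at 0 h (blue) and 12 h (orange). CCND1 has the highest bar at 12 h in each line (61.3 CPM per kb in MB468), and the bar of CDKN1A in MB468res-R8 shrinks from 43.8 to 8.27.

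CCND2 (chromosome 12, 4269771 to 4305353 on GRCh38) had 0 counts in 24 of 24 libraries. A count of 0 allows a level of up to 0.0806 CPM in the deepest library and 0.256 CPM in the shallowest, or 0.0395 CPM per kb there, a limit that covers counting error only. Its antisense gene CCND2-AS1 was at 0 as well. The D cyclin messages of these cells were thus those of CCND1 and CCND3.

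CCND1, cyclin D1 (chromosome 11, 69641156 to 69654474), rose in both lines at 2 and 12 h (at 2 h in MB468 only relative to other genes). In MB468 its normalized counts were 3890, 3897, and 3988 at 0 h, 3937, 4026, and 4253 at 0.5 h, 4819, 5098, and 5105 at 2 h, and 5843, 5866, and 6016 at 12 h. In MB468res-R8 they were 3868, 3967, and 3971 at 0 h, 3444, 3477, and 3786 at 0.5 h, 5241, 5837, and 6355 at 2 h, and 4732, 4761, and 4967 at 12 h. In each line the 2 h and 12 h libraries lay above all 0 h libraries, and the peak came at 12 h in MB468 and at 2 h in MB468res-R8. The rise in MB468 was 0.35 ± 0.0480 log2 (SE) at 2 h (edgeR adjusted p = 3.26e-07) and 0.59 ± 0.0469 at 12 h (edgeR adjusted p = 1.85e-14), but the 2 h value was -0.07 (edgeR adjusted p = 0.634) under spike-in scaling. At 0 h the lines differed by 0.00 ± 0.0478 (edgeR adjusted p = 0.945), and by -0.31 (edgeR adjusted p = 0.0361) under spike-in scaling. The rise in MB468res-R8 was 0.57 ± 0.0473 at 2 h (edgeR adjusted p = 2.07e-11) and 0.29 ± 0.0474 at 12 h (edgeR adjusted p = 1.22e-06), after a dip of -0.14 ± 0.0481 at 0.5 h (edgeR adjusted p = 0.0193). The call at 0.5 h was lost without replicate 1 or 2 of the 0 h group or replicate 1 or 2 of the 0.5 h group (-0.14 to -0.12, edgeR adjusted p = 0.0515 to 0.0966), and under spike-in scaling (-0.10, edgeR adjusted p = 0.749). At 12 h CCND1 was lower in MB468res-R8 than in MB468 (-0.29 ± 0.0465 log2, edgeR adjusted p = 4.47e-07). The 12 h response differed between the lines by -0.30 ± 0.0666 (edgeR adjusted p = 0.000193), a call that was lost under spike-in scaling (-0.04, edgeR adjusted p = 0.892).

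CCND3, cyclin D3 (chromosome 6, 41934934 to 42050357), fell in MB468 and not detectably in MB468res-R8. At 0, 0.5, and 2 h the MB468 libraries held between 1302 and 1524 normalized counts, and at 12 h they held 811, 831, and 843. All 12 libraries of MB468res-R8 lay between 1492 and 1788. The 12 h libraries of MB468 were below every other library of the series. The log2 fold change at 12 h was -0.82 ± 0.0526 in MB468 (edgeR adjusted p = 2.45e-17) and -0.09 ± 0.0506 in MB468res-R8 (edgeR adjusted p = 0.139), and the responses differed by 0.74 ± 0.0730 (edgeR adjusted p = 2.25e-11). At 2 h the value in MB468 was -0.14 ± 0.0536 (edgeR adjusted p = 0.0758), and -0.56 (edgeR adjusted p = 0.000318) under spike-in scaling. MB468res-R8 was 1.97-fold above MB468 at 12 h. At 0 h it was higher by 0.24 ± 0.0510 log2 (edgeR adjusted p = 0.000111), which turned to -0.07 (edgeR adjusted p = 0.691) under spike-in scaling.

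The E cyclins, which activate CDK2 late in G1, moved in different ways. CCNE1, cyclin E1 (chromosome 19, 29811991 to 29824312), had 1227, 1388, and 1402 normalized counts in MB468 at 0 h, 1254 to 1353 at 0.5 h, 1012, 1039, and 1051 at 2 h, and 1411, 1431, and 1484 at 12 h. In MB468res-R8 it had 987, 1001, and 1088 at 0 h, 985 to 1125 at 0.5 h, 861, 884, and 938 at 2 h, and 1376, 1426, and 1441 at 12 h. The lines were apart at 0 h, both were at their lowest at 2 h, and they overlapped at 12 h. At 0 h MB468res-R8 was lower (-0.39 ± 0.0569 log2, edgeR adjusted p = 1.69e-07). The fall at 2 h was -0.38 ± 0.0587 in MB468 (edgeR adjusted p = 3.93e-06) and -0.20 ± 0.0587 in MB468res-R8 (edgeR adjusted p = 0.0398), where the call was lost with the replicate number as a block (edgeR adjusted p = 0.0539). It was also lost without replicate 2 or 3 of the 0 h group or replicate 1 or 2 of the 2 h group (-0.22 to -0.16, edgeR adjusted p = 0.0546 to 0.268), with only the groups compared in the fit (edgeR adjusted p = 0.0585), and under spike-in scaling (-0.25, edgeR adjusted p = 1). At 12 h the change was 0.47 ± 0.0567 in MB468res-R8 (edgeR adjusted p = 2.92e-09) and 0.10 ± 0.0544 in MB468 (edgeR adjusted p = 0.0913), a difference between the responses of 0.36 ± 0.0786 (edgeR adjusted p = 0.000121).

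CCNE2, cyclin E2 (chromosome 8, 94879770 to 94896678), shares 1629 exon bases with INTS8, a subunit gene of the Integrator complex on the opposite strand. The library kit does not mark strand, so reads of the pair cannot be told apart in that stretch and the values of CCNE2 are uncertain. In MB468 its normalized counts were 537, 544, and 580 at 0 h, 373, 399, and 438 at 0.5 h, 438, 534, and 583 at 2 h, and 310, 315, and 329 at 12 h. In MB468res-R8 they were 421, 553, and 556 at 0 h, 427 to 482 at 0.5 h, 500 to 515 at 2 h, and 577, 577, and 613 at 12 h. At 12 h the MB468 libraries were the lowest of the series and did not overlap those of MB468res-R8. The log2 fold change at 12 h was -0.80 ± 0.0880 in MB468 (edgeR adjusted p = 1.40e-10), after -0.45 ± 0.0899 at 0.5 h (edgeR adjusted p = 8.96e-05). In MB468res-R8 it was 0.20 ± 0.0863 at 12 h (edgeR adjusted p = 0.0396), which fell to 0.08 (edgeR adjusted p = 0.441) without replicate 2 of the 0 h group and to 0.17 (edgeR adjusted p = 0.126) without replicate 2 of the 12 h group. This call was also lost under spike-in scaling (0.23, edgeR adjusted p = 0.207), with at least 10 counts in every library (0.19, edgeR adjusted p = 0.0572), and with DESeq2's Wald test (0.21, adjusted p = 0.0504). At 0.5 h its value in MB468res-R8 was -0.16 ± 0.0890 (edgeR adjusted p = 0.171), and -0.28 (edgeR adjusted p = 0.0126) without replicate 2 of the 0 h group. In MB468 at 2 h CCNE2 was at -0.10 ± 0.0898 (edgeR adjusted p = 0.549), and at -0.52 (edgeR adjusted p = 0.00173) under spike-in scaling. The lines differed at 0 h by -0.12 ± 0.0868 (edgeR adjusted p = 0.257), and by -0.42 (edgeR adjusted p = 0.00879) under spike-in scaling. The 12 h responses of the lines differed by 1.01 ± 0.123 (edgeR adjusted p = 4.39e-09). INTS8 differed in the same direction: its 12 h change was -0.12 ± 0.0607 in MB468 (edgeR adjusted p = 0.075) and 0.51 ± 0.0594 in MB468res-R8 (edgeR adjusted p = 8.91e-10), and its part in the values of CCNE2 was not tested.

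Of the kinases, CDK2 varied little and CDK6 differed between the lines. CDK2, the partner of cyclin E (chromosome 12, 55966781 to 55972789), ranged from 1568 to 1893 normalized counts over the 12 MB468 libraries and from 1790 to 1992 over those of MB468res-R8, and its group means spanned 1.21-fold, the narrowest span of the 9 genes. It was higher in MB468res-R8 by 0.16 ± 0.0439 log2 at 0 h (edgeR adjusted p = 0.00196) and by 0.23 ± 0.0430 at 12 h (edgeR adjusted p = 1.18e-05), but the 0 h value was -0.15 (edgeR adjusted p = 0.342) under spike-in scaling and the 12 h call was lost there (0.18, edgeR adjusted p = 0.244). With TMM it was called in MB468 at 0.5 h only (0.14 ± 0.0443, edgeR adjusted p = 0.00941), and this value was -0.07 (edgeR adjusted p = 0.731) under spike-in scaling and 0.11 (edgeR adjusted p = 0.075) without replicate 3 of the 0.5 h group. At 2 h in MB468 its value was 0.08 ± 0.0452 (edgeR adjusted p = 0.287), but -0.35 (edgeR adjusted p = 0.0164) under spike-in scaling. No response of CDK2 in MB468res-R8 passed the test.

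CDK6, the partner of the D cyclins (chromosome 7, 92604921 to 92836573), was higher in MB468res-R8 throughout. In MB468 its normalized counts were 2975, 3075, and 3390 at 0 h, 2710, 2898, and 3087 at 0.5 h, 3397, 3766, and 3995 at 2 h, and 2296, 2368, and 2368 at 12 h. In MB468res-R8 they were 4553, 4761, and 4857 at 0 h, 3428, 3594, and 3725 at 0.5 h, 4592, 4683, and 4812 at 2 h, and 3892, 4060, and 4304 at 12 h. The lines did not overlap at any time, and MB468 was highest at 2 h, whereas MB468res-R8 dipped at 0.5 h and overlapped its 0 h range again at 2 h. The difference between the lines was 0.58 ± 0.0518 log2 at 0 h (edgeR adjusted p = 3.00e-12) and 0.80 ± 0.0520 at 12 h (edgeR adjusted p = 1.24e-16), and under spike-in scaling the former was 0.28 and not called (edgeR adjusted p = 0.0571). The change at 12 h was -0.43 ± 0.0525 in MB468 (edgeR adjusted p = 3.49e-09) and -0.21 ± 0.0511 in MB468res-R8 (edgeR adjusted p = 0.000557), and the latter call was lost under spike-in scaling (-0.18, edgeR adjusted p = 0.253). At 2 h it was higher by 0.24 ± 0.0530 in MB468 (edgeR adjusted p = 0.00116), but -0.18 (edgeR adjusted p = 0.213) under spike-in scaling. At 0.5 h it was -0.40 ± 0.0516 in MB468res-R8 (edgeR adjusted p = 5.60e-08) and -0.12 ± 0.0530 in MB468 (edgeR adjusted p = 0.0934), and the latter was called without replicate 3 of the 0 h group (-0.16, edgeR adjusted p = 0.0251) or replicate 1 of the 0.5 h group (-0.18, edgeR adjusted p = 0.0158).

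CDKN1A, encoding p21 (chromosome 6, 36676460 to 36687337), covered the widest range, with group means 10.6-fold apart. In MB468 its normalized counts were 802, 833, and 909 at 0 h, 539, 615, and 689 at 0.5 h, 1683, 1754, and 1784 at 2 h, and 272, 317, and 318 at 12 h. In MB468res-R8 they were 1681, 2240, and 2401 at 0 h, 1352, 1520, and 1552 at 0.5 h, 2814, 2896, and 3888 at 2 h, and 378, 384, and 433 at 12 h. Both lines went down, up, and down again, no time point overlapped another within a line, and MB468res-R8 was above MB468 at each time. At 0 h MB468res-R8 held 2.51-fold more (1.33 ± 0.136 log2, edgeR adjusted p = 1.99e-07). The fall at 0.5 h was -0.47 ± 0.152 in MB468 (edgeR adjusted p = 0.0225) and -0.52 ± 0.130 in MB468res-R8 (edgeR adjusted p = 0.00451), and the former call was lost without replicate 3 of the 0 h group or replicate 1 or 2 of the 0.5 h group (-0.50 to -0.40, edgeR adjusted p = 0.0512 to 0.0886). At 2 h the rise was 1.04 ± 0.140 in MB468 (edgeR adjusted p = 3.38e-05) and 0.60 ± 0.125 in MB468res-R8 (edgeR adjusted p = 0.00695). Fitted to the groups compared alone, the changes in MB468res-R8 were not called at 0.5 h (edgeR adjusted p = 0.0707) or at 2 h (edgeR adjusted p = 0.331).

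After 12 h CDKN1A had fallen to 0.356 of its 0 h level in MB468 (-1.49 ± 0.157 log2, edgeR adjusted p = 1.43e-07) and to 0.188 in MB468res-R8 (-2.41 ± 0.148, edgeR adjusted p = 1.42e-10). The fall was larger in MB468res-R8, with a difference between the responses of -0.92 ± 0.218 (edgeR adjusted p = 0.00162). The lines were then 0.41 ± 0.171 log2 apart (edgeR adjusted p = 0.0411), a call that was lost without replicate 1 or 3 of MB468 or replicate 2 or 3 of MB468res-R8 at 12 h (0.33 to 0.46, edgeR adjusted p = 0.0518 to 0.135). Thus the gap between the lines in p21 message narrowed from 2.51-fold to 1.33-fold.

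CDKN1B, encoding p27 (chromosome 12, 12685498 to 12722369), had its highest level at 0.5 h in both lines. In MB468 its normalized counts were 520, 526, and 548 at 0 h, 866, 898, and 937 at 0.5 h, 501, 577, and 645 at 2 h, and 740, 852, and 858 at 12 h. In MB468res-R8 they were 487, 581, and 584 at 0 h, 774, 782, and 843 at 0.5 h, 404, 439, and 510 at 2 h, and 534, 622, and 633 at 12 h. The 0.5 h libraries lay above all 0 h libraries in each line, the 2 h libraries overlapped those of 0 h, and the 12 h libraries were higher again in MB468 alone. The rise at 0.5 h was 0.76 ± 0.0857 log2 in MB468 (edgeR adjusted p = 3.00e-09) and 0.55 ± 0.0860 in MB468res-R8 (edgeR adjusted p = 2.41e-06), and the responses did not differ past the threshold (-0.21 ± 0.121, edgeR adjusted p = 0.483). At 2 h the value in MB468res-R8 was -0.30 ± 0.0898 (edgeR adjusted p = 0.0504), close to the threshold. It passed with DESeq2 size factors (edgeR adjusted p = 0.0487), no filter (edgeR adjusted p = 0.00682), at least 10 counts in every library (edgeR adjusted p = 0.0457), and DESeq2's Wald test (adjusted p = 0.0469). It also passed without replicate 1 of the 0 h group (-0.39, edgeR adjusted p = 0.0115) or replicate 3 of the 2 h group (-0.38, edgeR adjusted p = 0.00888). At 12 h it was 0.62 ± 0.0839 in MB468 (edgeR adjusted p = 3.10e-08) and 0.13 ± 0.0872 in MB468res-R8 (edgeR adjusted p = 0.206). The 12 h responses differed by -0.49 ± 0.121 (edgeR adjusted p = 0.000695), a call that was lost under spike-in scaling (-0.25, edgeR adjusted p = 0.323). GPR19, on the opposite strand, shares no exon bases with CDKN1B.

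CDKN2B, encoding p15 (chromosome 9, 22002903 to 22009305), moved in opposite directions in the lines at 12 h. In MB468 its normalized counts were 1325, 1364, and 1412 at 0 h, 1449, 1462, and 1582 at 0.5 h, 1559, 1728, and 1784 at 2 h, and 1972, 2086, and 2185 at 12 h. In MB468res-R8 they were 1307, 1374, and 1402 at 0 h, 1520, 1590, and 1608 at 0.5 h, 1572, 1635, and 1736 at 2 h, and 539, 578, and 643 at 12 h. The lines overlapped at 0, 0.5, and 2 h and were far apart at 12 h. The log2 fold change at 12 h was 0.61 ± 0.0552 in MB468 (edgeR adjusted p = 7.37e-13) and -1.21 ± 0.0623 in MB468res-R8 (edgeR adjusted p = 8.38e-20). The responses differed by -1.82 ± 0.0832 (edgeR adjusted p = 3.31e-21), and MB468res-R8 held 0.282 of the level of MB468 at 12 h. At 0.5 h CDKN2B was higher by 0.21 ± 0.0573 in MB468res-R8 (edgeR adjusted p = 0.00318), a call lost under spike-in scaling (0.26, edgeR adjusted p = 0.229). In MB468 at 0.5 h its value was 0.14 ± 0.0576 (edgeR adjusted p = 0.0573), which passed without a filter (edgeR adjusted p = 0.048). At 2 h CDKN2B was higher by 0.30 ± 0.0582 in MB468 (edgeR adjusted p = 0.000124), which was -0.11 (edgeR adjusted p = 0.457) under spike-in scaling, and by 0.28 ± 0.0568 in MB468res-R8 (edgeR adjusted p = 0.000896), a call lost under spike-in scaling (0.23, edgeR adjusted p = 1). At 0 h the lines differed by -0.01 ± 0.0575 (edgeR adjusted p = 0.935), and by -0.32 (edgeR adjusted p = 0.0355) under spike-in scaling. The antisense gene CDKN2B-AS1 shares no exon bases with it and had at most 11.8% of its counts.

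**Figure D3:**
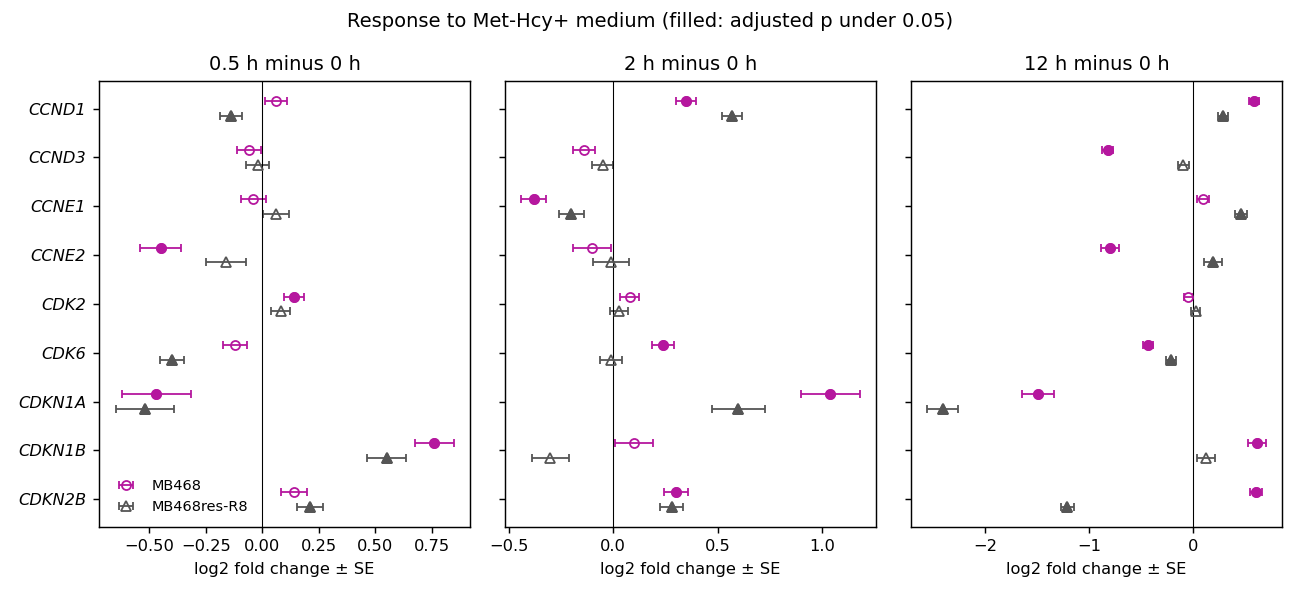
Log2 fold change ± SE against 0 h (x axes) of the 9 tested genes (y axes) at 0.5, 2, and 12 h, from edgeR's model on n = 3 libraries per group, for MB468 (circles) and MB468res-R8 (triangles), with filled symbols for an adjusted p under 0.05. CDKN1B lies right of 0 at 0.5 h in both lines, CDKN1A lies right of 0 at 2 h and left at 12 h, and CDKN2B lies at 0.61 and -1.21 at 12 h.

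Counted by comparison, the share of these genes called with TMM was close to that of all genes at 12 h and above it at 2 h. These differences between shares were not tested, and in MB468 at 2 h the shares depend on the scaling. In MB468, 4 of the 9 tested genes passed at 0.5 h, beside 33.9% of all tested genes (2 were higher, beside 17.6%, and 2 lower, beside 16.4%). Under spike-in scaling 1 was higher and 2 were lower, where 3287 of 14741 genes were called and 14% of those were higher. At 2 h, 5 passed, beside 16.3% of all genes (4 higher, beside 8.88%, and 1 lower, beside 7.47%). The split was 1 higher and 4 lower under spike-in scaling, where 9511 of 14741 genes were called and 2.52% of those were higher. At 12 h, 7 passed, beside 70.8% (3 higher, beside 36.1%, and 4 lower, beside 34.7%). In MB468res-R8, 5 passed at 0.5 h, beside 33.7% (2 higher, beside 17.4%, and 3 lower, beside 16.3%). At 2 h, 4 passed, beside 4.37% (3 higher, beside 2.52%, and 1 lower, beside 1.85%). Under spike-in scaling this count was 2, both higher, beside 180 of 14741 genes. It was 2 with only the groups compared in the fit (551 of 13886 genes), and 3 higher and 2 lower with DESeq2 size factors (635 of 14741 genes). At 12 h, 6 passed, beside 61.3% (3 higher, beside 30.2%, and 3 lower, beside 31.1%). All time points of a line share its 0 h libraries, so their values are not independent of each other.

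Between the lines, 5 of the 9 genes differed at 0 h, beside 53.5% of all genes. CCND3, CDK2, CDK6, and CDKN1A were higher in MB468res-R8 (26.4% of all genes were) and CCNE1 was lower (27.1% were). Under spike-in scaling 1 was higher and 4 were lower, where 7639 of 14741 genes were called and 15% of those were higher. At 12 h, 8 differed, beside 73.1% of all genes. CCND3, CCNE2, CDK2, CDK6, and CDKN1A were higher (33.9% of all genes were), and CCND1, CDKN1B, and CDKN2B were lower (39.2% were). CCND1, CCNE2, CDKN1B, and CDKN2B had not been called at 0 h, and CCNE1 no longer was at 12 h. The response itself differed for 1 gene, CDK6, at 0.5 h, beside 2.9% of all genes (1.2% higher and 1.7% lower), and for CDK6 again at 2 h, beside 5.07% (2.19% higher and 2.88% lower). Both CDK6 values were lower in MB468res-R8 and neither was called under spike-in scaling, where CCND1 alone passed at 2 h (0.59, edgeR adjusted p = 0.0312). With that scaling 931 of 14741 genes were called at 2 h, and 93% of those were higher. The CCND1 value at 2 h was 0.21 ± 0.0673 (edgeR adjusted p = 0.0573) and also passed with DESeq2 size factors (edgeR adjusted p = 0.0499), DESeq2's Wald test (adjusted p = 0.0408), and no filter (edgeR adjusted p = 0.0245). At 12 h it differed for 8, beside 56.5%. The cyclins CCND3, CCNE1, and CCNE2 and the kinase CDK6 then had the higher response in MB468res-R8 (26.2% of all genes did). CCND1 and the 3 inhibitors CDKN1A, CDKN1B, and CDKN2B had the lower response (30.3% did). CDK2 was the exception (0.06 ± 0.0614, edgeR adjusted p = 0.389). Under spike-in scaling 4 members were higher and 2 lower at 12 h, where 5797 of 14741 genes were called and 69.9% of those were higher.

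**Figure D4:**
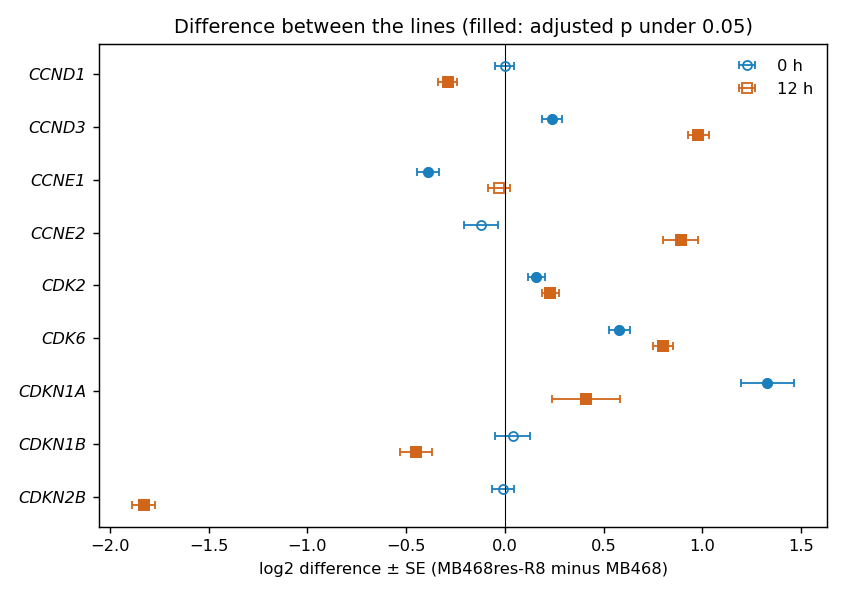
Log2 difference ± SE between the lines (x axis, MB468res-R8 minus MB468, edgeR's model, n = 3 libraries per group) for the 9 tested genes at 0 h (blue circles) and 12 h (orange squares), with filled symbols for an adjusted p under 0.05. CDKN2B lies at -0.01 at 0 h and -1.83 at 12 h, CDKN1A moves from 1.33 to 0.41, and CCND3 moves from 0.24 to 0.98.

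Lists of genes around these cyclins and inhibitors were described at 12 h by counts and medians, beside a median of all genes of 0.01 in MB468, -0.02 in MB468res-R8, and -0.05 for the difference between the responses. Of all tested genes, 36.1% rose and 34.7% fell in MB468, 30.2% rose and 31.1% fell in MB468res-R8, and the response was higher in MB468res-R8 for 26.2% and lower for 30.3%. Under spike-in scaling the median of all genes was -0.23 in MB468, 0 in MB468res-R8, and 0.20 for the difference between the responses. Of 14741 genes, 8460 (30% of them higher), 5887 (47% higher), and 5797 (69.9% higher) were called there, in the same order. No list was tested against other genes. Among 12 S phase genes driven by E2F, 9 fell and 1 rose in MB468 (median -0.50 log2), 1 fell and 3 rose in MB468res-R8 (median 0.06), and the response was higher in MB468res-R8 for 12 of 12 (median 0.56). Under spike-in scaling 9 fell and 0 rose in MB468, 1 fell and 2 rose in MB468res-R8, and the last count was again 12 of 12. TK1, thymidine kinase, fell in both, with -0.92 ± 0.0423 in MB468 (edgeR adjusted p = 6.67e-22) and -0.34 ± 0.0424 in MB468res-R8 (edgeR adjusted p = 4.49e-09). PCNA, the sliding clamp of DNA polymerase, fell by 0.81 ± 0.0515 in MB468 (edgeR adjusted p = 6.39e-17), as did RRM1, a ribonucleotide reductase subunit (-0.73 ± 0.0464, edgeR adjusted p = 2.11e-17). In MB468res-R8 the values of PCNA and RRM1 were 0.03 ± 0.0516 and 0.02 ± 0.0458, neither past the threshold.

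Of 13 pocket protein and E2F factor genes, 3 rose and 6 fell in MB468 (median -0.21), and 7 rose and 4 fell in MB468res-R8 (median 0.21). Under spike-in scaling 1 rose and 8 fell in MB468 (median -0.44, beside -0.23 for all genes), and 3 rose and 2 fell in MB468res-R8. E2F4, an E2F of quiescent cells, rose by 0.61 ± 0.0539 in MB468 (edgeR adjusted p = 5.94e-13) and by 0.43 ± 0.0563 in MB468res-R8 (edgeR adjusted p = 1.65e-08). The activator E2F2 fell in both (-0.56 ± 0.0713, edgeR adjusted p = 4.45e-09, and -0.51 ± 0.0715, edgeR adjusted p = 6.80e-08), and the repressor E2F7 rose in both, by 0.44 ± 0.0812 (edgeR adjusted p = 7.85e-06) and 0.26 ± 0.0853 (edgeR adjusted p = 0.00835). RB1, singled out after its values were seen, was near the limit of detection, with 12 to 49 counts per library.

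Of 10 other G1 kinases, activators, and inhibitors tested (CDKN1C did not pass the filter), 3 rose and 1 fell in MB468, 7 rose and 1 fell in MB468res-R8, and under spike-in scaling 0 rose and 3 fell in MB468 and 3 rose and 1 fell in MB468res-R8. CDKN2D, the INK4 inhibitor p19, rose by 0.46 ± 0.0572 in MB468 (edgeR adjusted p = 2.73e-09) and fell by 0.62 ± 0.0605 in MB468res-R8 (edgeR adjusted p = 1.25e-11), the same directions as CDKN2B. The other INK4 genes of the list, CDKN2A and CDKN2C, were not called in MB468 (-0.09 and 0, edgeR adjusted p = 0.612 and 0.991). In MB468res-R8 their mean normalized counts were 2573 and 632 at 0 h and 2649 and 725 at 12 h. The responses of CDKN2D differed by -1.08 ± 0.0833 (edgeR adjusted p = 2.32e-14). CCNA2, cyclin A2, moved the other way, by -0.19 ± 0.0481 in MB468 (edgeR adjusted p = 0.000544) and 0.73 ± 0.0474 in MB468res-R8 (edgeR adjusted p = 1.10e-16), with a difference of 0.92 ± 0.0675 (edgeR adjusted p = 5.81e-15). MNAT1, of the CDK-activating kinase, rose by 0.49 ± 0.0744 in MB468 (edgeR adjusted p = 2.63e-07) and by 0.20 ± 0.0752 in MB468res-R8 (edgeR adjusted p = 0.0182).

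Among 15 ubiquitin ligase genes that turn over G1 cyclins and inhibitors, 6 rose and 2 fell in MB468 and 6 rose and 3 fell in MB468res-R8, with medians of 0.03 and 0.10. Under spike-in scaling 3 rose and 4 fell in MB468 (median -0.21, beside -0.23 for all genes), and 3 rose and 1 fell in MB468res-R8. AMBRA1, the receptor that directs D cyclins to degradation, rose by 0.73 ± 0.0421 in MB468 (edgeR adjusted p = 1.10e-18) and by 0.26 ± 0.0434 in MB468res-R8 (edgeR adjusted p = 1.61e-06), and the responses differed by -0.46 ± 0.0604 (edgeR adjusted p = 1.74e-08). DTL, a receptor for p21, rose by 0.60 ± 0.0515 in MB468 (edgeR adjusted p = 1.88e-13) and by 0.26 ± 0.0542 in MB468res-R8 (edgeR adjusted p = 8.77e-05). CUL1, the scaffold of SCF ligases, rose with TMM scaling by about the same amount in both, 0.59 ± 0.0387 (edgeR adjusted p = 5.98e-17) and 0.57 ± 0.0402 (edgeR adjusted p = 1.67e-15).

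Of 20 p53 target genes other than CDKN1A, 11 rose and 8 fell in MB468 (median 0.22), and 3 rose and 13 fell in MB468res-R8 (median -0.33). Under spike-in scaling 4 rose and 8 fell in MB468 (median -0.02, beside -0.23 for all genes), and 0 rose and 10 fell in MB468res-R8. The response was lower in MB468res-R8 for 11 and higher for 4 (median -0.47). GDF15, a stress-induced cytokine, rose by 1.74 ± 0.301 in MB468 (edgeR adjusted p = 2.81e-06), from 16 to 25 counts per library at 0 h to 69 to 117 at 12 h. In MB468res-R8 GDF15 was near the limit of detection, with 5 to 13 counts per library at 0 h and 1 in each at 12 h. GADD45A, a stress-response gene that restrains the cell cycle, rose by 1.19 ± 0.0798 in MB468 (edgeR adjusted p = 1.27e-13) and fell by 1.03 ± 0.0819 in MB468res-R8 (edgeR adjusted p = 1.07e-11). PPM1D, a phosphatase that acts on p53, rose by 1.04 ± 0.0644 in MB468 (edgeR adjusted p = 8.00e-18) and by 0.18 ± 0.0688 in MB468res-R8 (edgeR adjusted p = 0.024). CDKN1A itself fell in both lines.

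**Figure D5:**
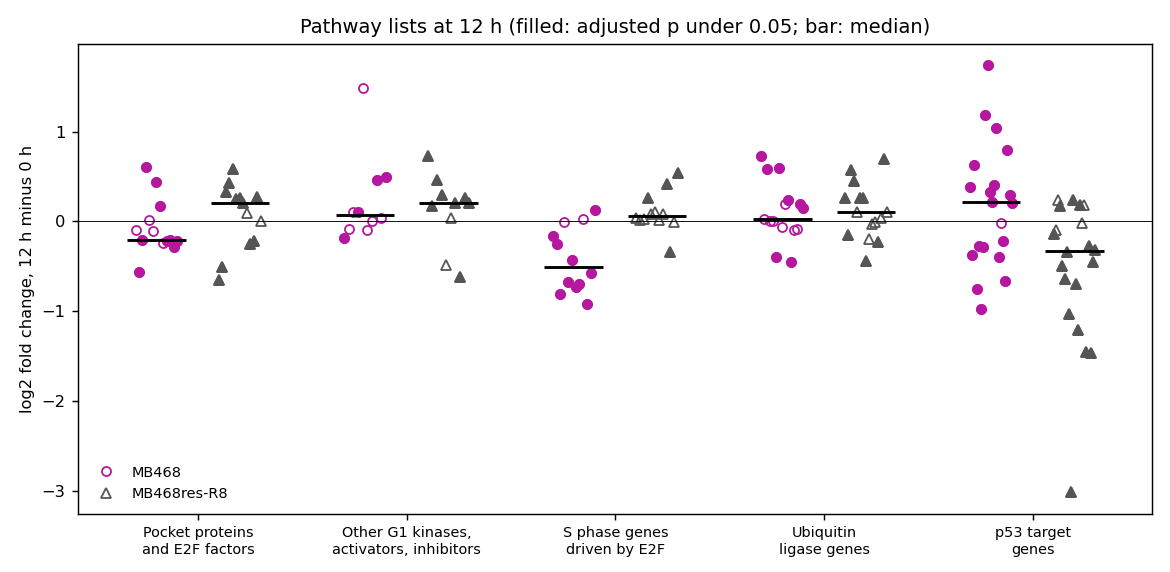
Log2 fold change at 12 h minus 0 h (y axis) of each tested gene of 5 pathway lists (x axis) in MB468 (circles) and MB468res-R8 (triangles), with filled symbols for an adjusted p under 0.05 in edgeR's model and a bar at each median. The S phase genes have medians of -0.50 in MB468 and 0.06 in MB468res-R8, and the p53 target genes have medians of 0.22 and -0.33.

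For each tested member, the genes with the most similar log2 CPM over the 24 libraries were looked up among 9874 others. These correlations are a description, since the libraries fall into 8 groups of 3. CDKN1A was most like USP2 (Pearson r = 0.956) and KRT16 (0.954), CDKN2B was most like CREB3L2 (0.953) and DYRK1B (0.93), and CDKN1B was most like MEX3A and ZNF652 (0.926 each). CCND1 was most like MAT2A (0.91), which encodes the enzyme that makes S-adenosylmethionine from Met, and SGK223 (0.865). CCND3 followed ELOVL1 (0.988) and CD63 (0.987), CCNE1 followed MGA (0.948) and NAA40 (0.93), and CCNE2 followed MBNL1 (0.938) and CORO1C (0.915). CDK2 followed ANKMY2 (0.914) and HIF1A (0.906), and CDK6 followed ESYT2 (0.952) and SLC39A8 (0.948). Among the members themselves the furthest from 0 was that of CCNE1 with CDKN1A (r = -0.953): CCNE1 was low where CDKN1A was high, at 2 h and in MB468res-R8 at 0 h.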

How the data were processed

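Poly(A) RNA was made into libraries with a TruSeq v2 kit and spike-ins and read as single ends of 100 bp. The authors used HISAT2 2.1.0 to align them to GRCh38 and the spike-ins and featureCounts to count them (Subread 1.5.3), per the labels' processing notes and the methods; strand setting and annotation are not given in the sources used here. The deposited table used here holds raw counts per gene, without normalization. A normalized table of 18 libraries and a table of the authors' own comparison (fold changes, errors, p-values) were not used.

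In R 4.3.3, edgeR 4.0.16 (filterByExpr, minimum count 10 and total 15; TMM; robust quasi-likelihood test) was fitted to 24 libraries with a mean per group, with Benjamini-Hochberg adjustment over 14741 genes and calls at an adjusted p under 0.05. The SE is the log2 fold change divided by the root of F. Normalized counts are counts divided by the effective library size, times the mean effective size. Transcript lengths and coordinates are from GENCODE on GRCh38. Correlations used log2 CPM with a prior count of 2 and genes with a mean of at least 3. Genes named are the members, the 3 called genes of each list with the largest change in MB468 at 12 h, and the 2 genes most like each member. CDKN2A and CDKN2C were added as the other INK4 genes of their list. The members and lists were chosen with earlier results of these data known. In no comparison did every same-numbered pair of libraries deviate together (correlations from -0.355 to 0.32), so the replicate block is an alternative. Scripts were tested on simulated data. Alternatives were other scalings, filters, and fits, DESeq2 1.42.0, and leaving out each library.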

Additional observations from a re-analysis of the deposited data

Results flagged for a closer look

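The response to Met-Hcy+ medium differed between the lines, tested as a contrast of edgeR's model (MB468res-R8 response minus MB468 response, log2, n = 3 libraries per group), in 10 cases. At 12 h it was higher in MB468res-R8 for CCNE2 by 1.01 ± 0.123 (SE), CCND3 by 0.74 ± 0.0730, CCNE1 by 0.36 ± 0.0786, and CDK6 by 0.22 ± 0.0732. It was lower there at 12 h for CDKN2B (-1.82 ± 0.0832), CDKN1A (-0.92 ± 0.218), CDKN1B (-0.49 ± 0.121), and CCND1 (-0.30 ± 0.0666). The CDK6 value at 12 h had an adjusted p of 0.0105 from edgeR's quasi-likelihood test and was 0.16 (edgeR adjusted p = 0.0682) without replicate 2 of MB468 at 0 h.

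CDK6 was the 1 gene whose early responses were called, at -0.28 ± 0.0740 for 0.5 h (edgeR adjusted p = 0.0227) and -0.25 ± 0.0735 for 2 h (edgeR adjusted p = 0.0411). The 0.5 h call was lost without replicate 1 or 3 of either line at 0 h, replicate 1 or 2 of MB468 at 0.5 h, or replicate 1 or 3 of MB468res-R8 at 0.5 h (edgeR adjusted p = 0.0503 to 0.164). The 2 h call was lost without replicate 1 or 3 of either line at 0 h, replicate 2 or 3 of MB468 at 2 h, or replicate 1 or 2 of MB468res-R8 at 2 h (edgeR adjusted p = 0.0739 to 0.148), and the 2 h value was -0.20 (edgeR adjusted p = 0.148) without replicate 2 of MB468 at 2 h, the library with high RN7SK. Under spike-in scaling the values were -0.03 and 0.12 (edgeR adjusted p = 0.927 and 0.6). With only the groups compared in the fit, the 2 h value was -0.23 (edgeR adjusted p = 0.0577). Other settings called other genes at 2 h: CCND1 with DESeq2 size factors (0.22, edgeR adjusted p = 0.0499), DESeq2's Wald test (0.22, adjusted p = 0.0408), no filter (0.22, edgeR adjusted p = 0.0245), and spike-in totals (0.59, edgeR adjusted p = 0.0312), and CDKN1A (-0.43, edgeR adjusted p = 6.34e-06) and CDKN1B (-0.39, edgeR adjusted p = 0.0145) without a filter. Calls at 2 h were also gained by CCND1 (0.28, edgeR adjusted p = 0.00322) and CDKN1B (-0.48, edgeR adjusted p = 0.0191) without replicate 3 of MB468res-R8 at 2 h, by CDKN1B without replicate 1 of MB468res-R8 at 0 h (edgeR adjusted p = 0.0214) or replicate 3 of MB468 at 2 h (edgeR adjusted p = 0.0169), and by CDKN1A (-0.61, edgeR adjusted p = 0.026) without replicate 2 of MB468res-R8 at 2 h.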

How the results depend on the processing

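A result was counted as kept if its call was unchanged and, where called, its direction too. A reversal was a change of direction in a result called in either fit. Changes of direction in results called in neither fit were not counted. Of 99 results (9 genes in 11 comparisons), 97 were kept with DESeq2 size factors, 94 without a filter, 97 with at least 10 counts in every library, 96 with DESeq2's Wald test, 95 with only the groups compared, 98 with a replicate block, 91 at an adjusted p under 0.01, and 74 with spike-in totals. Leaving out single libraries gave 756 results, of which 711 were kept, 35 lost their call, 10 gained one, and none reversed in this sense. Some uncalled values near 0 did change sign, such as CCNE2 in MB468 at 2 h (-0.20 to 0.02). Reversals came with spike-in totals alone: for MB468res-R8 minus MB468 at 0 h, CCND1 (-0.31), CCND3 (-0.07), and CDK2 (-0.15); for MB468, CDK2 at 0.5 h (-0.07) and CCND1 (-0.07), CDK2 (-0.35), CDK6 (-0.18), and CDKN2B (-0.11) at 2 h; and the CDK6 difference in the 2 h response (0.12). The values of CCND1 at 0 h and CDK2 at 2 h had not been called with TMM. Spike-in totals shift the median of all genes, by -0.42 for MB468 at 2 h and by 0.38 for the difference in the 2 h response.

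Counts of called genes moved by over 1.5 times in 4 comparisons. In MB468res-R8 the count was 3 at 0.5 h (from 5) and 2 at 2 h (from 4) with spike-in totals, and 2 at 2 h with only the groups compared. For the difference in the 0.5 h response (1 gene) it was 0 with spike-in totals and at an adjusted p under 0.01, and 0 to 1 without single libraries. For the difference in the 2 h response (1 gene) it was 2 with DESeq2 size factors, 4 without a filter, 2 with DESeq2's Wald test, 0 with only the groups compared, 0 at an adjusted p under 0.01, and 0 to 3 without single libraries. The cause was not tested. With the replicate number as a block, 1 call changed, CCNE1 in MB468res-R8 at 2 h (-0.20, edgeR adjusted p = 0.0539), and no other; labels do not say that the numbers mark a shared batch or day.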
